A study of Mus musculus with 8 samples.

Results

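This account concerns 10 genes of the histone acetyltransferase complexes built around the MYST enzymes KAT6A, KAT6B and KAT7, out of 54532 genes in the deposited count table. The genes were the scaffolds Brd1, Brpf1, Brpf3 and Jade1, the enzymes Kat7, Kat6a and Kat6b, and the accessory subunits Ing4, Ing5 and Meaf6. They were found by Ensembl identifier, and all 10 passed the filter on low counts, as did 17291 genes in all. The set was chosen by the CPM values of Brd1 in these same libraries, where it was higher in the knock-in microglia without overlap. The Brd1 difference is therefore described with no test, and the partners were added for their place in the same complexes.

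RNA sequencing was performed on spinal cord microglia, the macrophages that live in nervous tissue, from 8 female mice. The sort took live cells that were CD11b-positive, low for CD45 and negative for Ly6C. Of the mice, 4 were wild type (WT) and 4 carried the genotype that the labels call Cd11b-P2X4mCherryIN KI (KI), which concerns P2X4, an ion channel gated by extracellular ATP. The labels name no treatment, age or batch, and they do not say which promoter or recombinase limits the knock-in to which cells. Each library is labelled with 1 numbered mouse, and these numbers name the libraries below, so that p-values measure the spread between these mice. Total counts ran from 45167483 to 54049801 reads. P2rx4, the gene of P2X4, averaged 793 ± 43.5 CPM in the WT group (SD, n = 4), where CPM are counts scaled to library size with TMM factors. The KI group averaged 859 ± 62.7 CPM (n = 4) and overlapped it. Counts summed over the gene cannot tell transcripts of the introduced allele from others, so P2rx4 does not check the labels. The 10 microglial markers were all detected and summed to between 32452 and 38661 CPM. Summed markers overlapped between the groups for each of the other cell types examined. They reached at most 385.4 CPM for astrocytes, where Slc1a3 made up most of the sum, 288.3 for oligodendrocytes and 523.9 for erythroid cells, whose sums were 160.0 to 523.9 CPM in WT and 96.6 to 306.8 in KI. They reached 61.9 CPM for monocytes and neutrophils, 20.2 for border-associated macrophages, 18.2 for neurons, 56.1 for endothelium and 3.37 for lymphocytes. The maxima for monocytes and neutrophils, border-associated macrophages and lymphocytes came from KI 528, where WT reached 22.8, 11.5 and 2.62 CPM. The maximum for neurons came from KI 526, where WT reached 8.20 CPM. In libraries of bulk RNA, fewer cells of a type and less RNA per cell cannot be told apart.

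MYST enzymes transfer acetyl groups to lysines of histone tails, but on chromatin they act as complexes. A scaffold protein of the BRPF family (BRPF1, BRD1, also called BRPF2, and BRPF3) or of the JADE family joins the enzyme to an ING protein and to MEAF6, and the choice of scaffold influences which histone the enzyme acetylates. BRD1 and BRPF proteins carry a bromodomain, PHD fingers and a PWWP domain, modules that bind modified histones, and ING proteins recognise histone H3 methylated at lysine 4. KAT7 was first described as a protein that binds the replication origin recognition complex, and KAT6A is best known from leukaemia translocations and blood stem cell maintenance.

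The sequence before the start site is shown for the gene that defines the set and for the enzyme gene with the highest level, because both were abundant in these cells while their upstream sequences differ in base composition. RefSeq promoter entries of GRCm38.p6 (the mm10 build) matched 9 of the 10 genes, with no entry for Kat6a, and the 250 bases before the start were searched on both strands for 5 motifs. These were the TATA box (TATAAA), the CCAAT box (CCAAT), the GC box (GGGCGG), the ETS core (CCGGAA) and the motif of PU.1, the macrophage ETS factor (GAGGAAGT, which shares the letters GGAA with the ETS core). Capitals mark every match on either strand.
Brd1, chr15:88734220-88734469, minus strand: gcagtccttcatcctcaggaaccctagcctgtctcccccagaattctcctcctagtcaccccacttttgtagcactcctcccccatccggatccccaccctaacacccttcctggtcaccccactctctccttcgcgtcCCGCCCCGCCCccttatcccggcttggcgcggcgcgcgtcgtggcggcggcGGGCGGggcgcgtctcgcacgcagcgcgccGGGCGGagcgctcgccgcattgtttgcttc
Kat7, chr11:95310247-95310496, minus strand: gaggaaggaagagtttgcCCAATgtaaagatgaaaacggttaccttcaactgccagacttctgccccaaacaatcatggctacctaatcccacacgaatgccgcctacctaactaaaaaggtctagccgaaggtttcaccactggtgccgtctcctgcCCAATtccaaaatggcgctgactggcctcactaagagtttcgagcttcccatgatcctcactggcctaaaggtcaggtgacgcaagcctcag

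The Brd1 sequence held 27 CpG dinucleotides, more than 91.4% of the 32851 entries, and 4 GC boxes, 2 of which overlap by 1 base. The Kat7 sequence held 8 CpG and no GC box, with 2 CCAAT boxes, and the median entry held 6 CpG. Across the set, at least 1 entry held a GC box for 7 of the 9 genes (all but Kat7 and Meaf6), against 32.7% of all entries. The ETS core was found for 4 of 9 (Ing4, Ing5, Jade1 and Meaf6) against 12% of entries, and the CCAAT box for 2 of 9 (Ing5 and Kat7) against 33.8%. The TATA box (12.4% of entries) and the PU.1 letters (2.44%) were found for 0 of 9. Jade1 has 4 entries and Kat6b 2, so these genes had more chances of a match.

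Among the scaffolds, Brd1, which is known to bring KAT7 to chromatin (ENSMUSG00000022387, mm10 chromosome 15, 88687034 to 88734233, minus strand) was the one whose groups did not overlap. Its level was 78.6, 81.5, 83.1 and 85.0 CPM in WT 503, 504, 506 and 527, and 98.0, 112, 105 and 105 CPM in KI 513, 526, 528 and 549. Every KI library thus lay above every WT library, the nearest pair being KI 513 and WT 527, and the highest value was that of KI 526. The means were 82.0 ± 2.72 and 105 ± 5.89 CPM (SD, n = 4 each), a fold of 1.28 (log2 fold change 0.36 from the edgeR fit). These counts rested on 3797 to 5967 reads per library. A choice by difference favours a large fold, so this fold may be too high and no SE is given. The log2 fold change lay between 0.32 and 0.39 when each library was left out in turn. Because Brd1 was chosen for groups without overlap, no omission could undo its separation, so this range is description only. As background to the rule that chose it, 313 of the 10171 genes that averaged 5 CPM or more were higher in KI without overlap (3.08%) and 302 were lower (2.97%), 6.05% in either direction.

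Brpf1 (ENSMUSG00000001632, chromosome 6, 113307137 to 113324860, plus strand) encodes the scaffold most associated with KAT6A and KAT6B. It was read at 17.6, 18.4, 15.0 and 21.3 CPM in WT and at 24.7, 16.1, 22.1 and 22.6 CPM in KI, the libraries being in the order given for Brd1. Of the KI libraries, 3 exceeded every WT library, while KI 526, the library with the highest Brd1, had the second lowest Brpf1 of all 8. Jade1 (ENSMUSG00000025764, chromosome 3, 41555731 to 41616864, plus strand) encodes a scaffold that pairs with KAT7 and is known to be stabilised by the von Hippel-Lindau protein. Its levels were 28.2, 30.9, 21.6 and 21.9 CPM in WT and 29.8, 28.7, 31.2 and 31.8 CPM in KI. The KI libraries lay close together near the top of the WT range, and the WT libraries fell apart into a higher pair (503 and 504) and a lower pair (506 and 527). Brpf3 (ENSMUSG00000063952, chromosome 17, 28801090 to 28839949, plus strand), a scaffold of KAT7, was the rarest gene of the set, with 1.57 to 3.41 CPM in WT and 2.035 to 3.44 in KI on 73 to 172 reads. Its groups spanned nearly the same range.

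Among the enzymes, Kat7 (ENSMUSG00000038909, chromosome 11, 95274259 to 95310246, minus strand) was read at 83.7, 92.1, 109 and 98.0 CPM in WT and at 81.2, 100, 86.6 and 104 CPM in KI. Kat6a (ENSMUSG00000031540, chromosome 8, 22859535 to 22943259, plus strand) was read at 53.99, 50.3, 44.8 and 50.4 CPM in WT and at 61.7, 43.5, 57.9 and 44.3 CPM in KI. For Kat6a the KI libraries split into 2 above every WT library (513 and 528) and 2 below every WT library (526 and 549), and the same 513 and 528 were the KI libraries with less Kat7. Kat6b (ENSMUSG00000021767, chromosome 14, 21481434 to 21672478, plus strand), the close paralog of Kat6a, was at 24.1, 20.8, 22.8 and 17.9 CPM in WT and 24.9, 25.6, 20.6 and 23.2 CPM in KI. Its groups overlapped, with 2 KI libraries above the WT range.

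Of the accessory subunits, Ing5 (ENSMUSG00000026283, chromosome 1, 93803965 to 93822101, plus strand), the ING protein shared by KAT6 and KAT7 complexes, was at 48.5, 49.2, 60.1 and 62.4 CPM in WT. In KI it was at 55.2, 57.1, 57.4 and 51.8 CPM, so that all KI libraries lay inside the WT range. Ing4 (ENSMUSG00000030330, chromosome 6, 125039760 to 125049265, plus strand), the alternative ING subunit of KAT7 complexes, was at 9.70, 12.7, 10.4 and 10.8 CPM in WT and at 8.245, 7.65, 10.7 and 9.06 CPM in KI. Of the KI libraries, 3 lay below every WT library and KI 528 lay inside the WT range. Meaf6 (ENSMUSG00000028863, chromosome 4, 125085134 to 125113238, plus strand), the small subunit common to these complexes, varied widely within both groups, at 46.1, 24.7, 33.4 and 30.1 CPM in WT and 30.5, 37.3, 29.9 and 49.45 CPM in KI. Its highest values were 1 library of each group, WT 503 and KI 549.

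**Figure D1:**
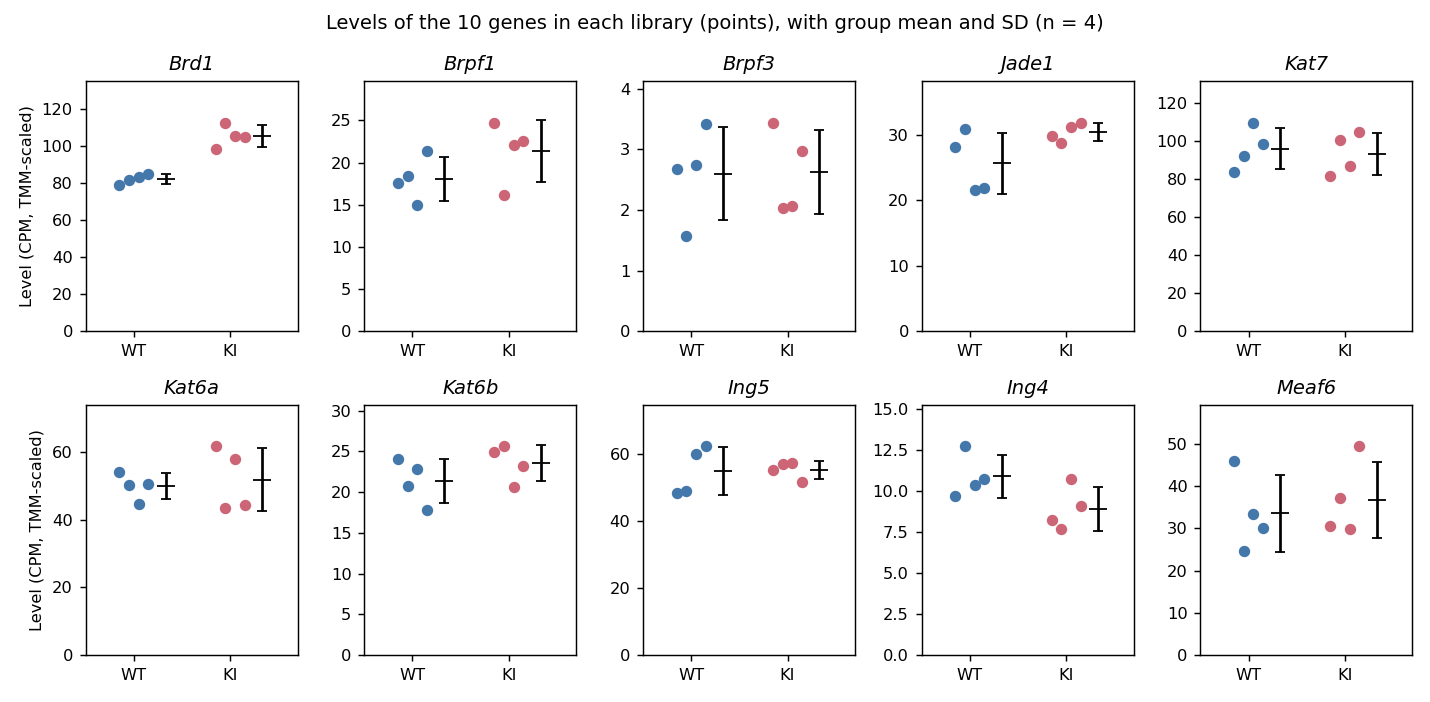
Level of each of the 10 genes in CPM scaled by TMM (vertical axis, from 0) in the WT and KI libraries (points), with the mean and SD of each group (n = 4). Brd1 is the gene whose groups are apart, with WT from 78.6 to 85.0 CPM and KI from 98.0 to 112 CPM, and the groups of the other 9 genes overlap.

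The comparison of KI with WT asks whether the partners of Brd1 differ between the genotypes as well. By edgeR's quasi-likelihood test with Benjamini-Hochberg adjustment over all 17291 genes, 0 of the 9 partners passed, where 0 of all genes (0%) passed. At an unadjusted p under 0.05 there were 0 of the 9 partners, against 7.79% of all genes, and DESeq2 called 0 of the 9 against 1.11% of the genes to which it gave an adjusted p. Of the 8 partners that averaged 5 CPM or more, 0 were without overlap, beside the 6.05% given above. The fold changes of 7 partners were above 0 and those of 2 below, with a median log2 fold change of 0.06, and over all tested genes 50.1% were above 0 with a median of 0.0005.

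The sizes that these data leave room for differed between the partners. For Kat7 the log2 fold change was −0.04 (SE 0.11, n = 4 each, edgeR adjusted p = 0.968), and its 95% interval ran from a fold of 0.821 to 1.15. Ing5 was similarly bounded, at 0.01 with an interval from a fold of 0.853 to 1.19 (adjusted p = 0.995). Kat6a stood at 0.06 (fold 0.847 to 1.27, adjusted p = 0.964) and Kat6b at 0.14 (fold 0.895 to 1.36, adjusted p = 0.875). Jade1 and Brpf1 had estimates of 0.25 (fold 0.956 to 1.47, adjusted p = 0.733) and 0.24 (fold 0.913 to 1.53, adjusted p = 0.797). Ing4 had the lowest estimate, −0.29 (fold 0.625 to 1.07, adjusted p = 0.756). Meaf6, at 0.13, was bounded only between folds of 0.786 and 1.53 (adjusted p = 0.943), and Brpf3, at 0.02, between 0.598 and 1.71 (adjusted p = 0.996). A rise as large as that of Brd1, which was chosen for its difference, lay inside the intervals of Jade1, Brpf1, Kat6b, Meaf6 and Brpf3. Over the alternatives tried for these 9 genes, the lowest adjusted p was 0.503, for Ing4 by DESeq2.

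**Figure D2:**
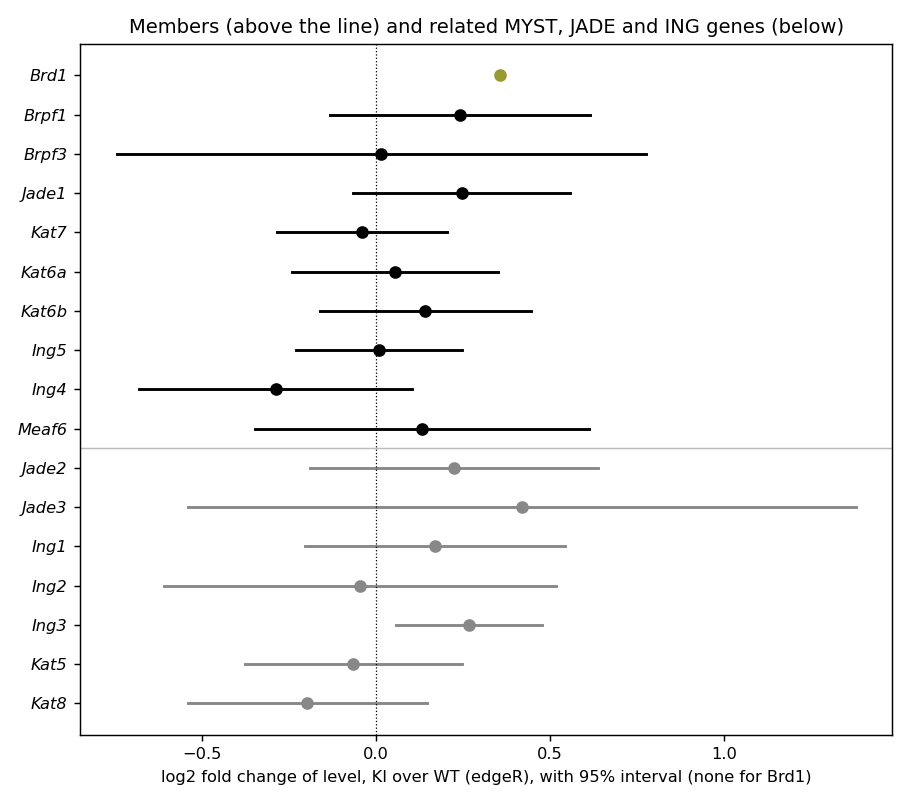
Log2 fold change of level, KI over WT, from the edgeR fit (horizontal axis) for the 10 genes of the set above the line and 7 related genes below it, with 95% intervals for all but Brd1 (olive, 0.36), which was chosen for this difference. The intervals of the 9 partners all reach 0, and among the related genes that of Ing3 (0.27, adjusted p = 0.572) does not.

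Per exon length, the 10 genes covered a wide range of levels. The deposited FPKM, counts scaled to library size and exon length, averaged over the 8 libraries 17.7 for Kat7, 12.15 for Ing5, 11.4 for Brd1, 7.01 for Meaf6 and 5.65 for Kat6a. It was 3.37 for Jade1, 2.99 for Brpf1, 1.93 for Ing4, 1.35 for Kat6b and 0.309 for Brpf3. Kat7 exceeded Ing5, Kat6a exceeded Jade1 and Kat6b exceeded Brpf3 in 8 of 8 libraries with no overlap of their ranges. Brd1 exceeded Meaf6 and Brpf1 exceeded Ing4 in 8 of 8 libraries, although their ranges over the libraries overlapped. Ing5 and Brd1 (5 of 8 libraries in that order), Meaf6 and Kat6a (5 of 8), Jade1 and Brpf1 (6 of 8) and Ing4 and Kat6b (7 of 8) were neighbours whose order was not the same in every library. The exon lengths join the exons of all annotated transcripts, which lowers the value of a gene with many long or retained exons. In Ing4, 5320 bases lie in 3 joined blocks, and 34.9% of these bases also belong to exons of Gm44597 on the same strand. No option to count reads in more than 1 gene is in the file headers, so the Ing4 level is uncertain. Small overlaps with antisense genes touched Brpf1 (3.76% of its exon bases), Jade1 (3.42%) and Brpf3 (3.14% and 1.38%, with 2 genes), and these genes held at most 7.0 reads on average.

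**Figure D3:**
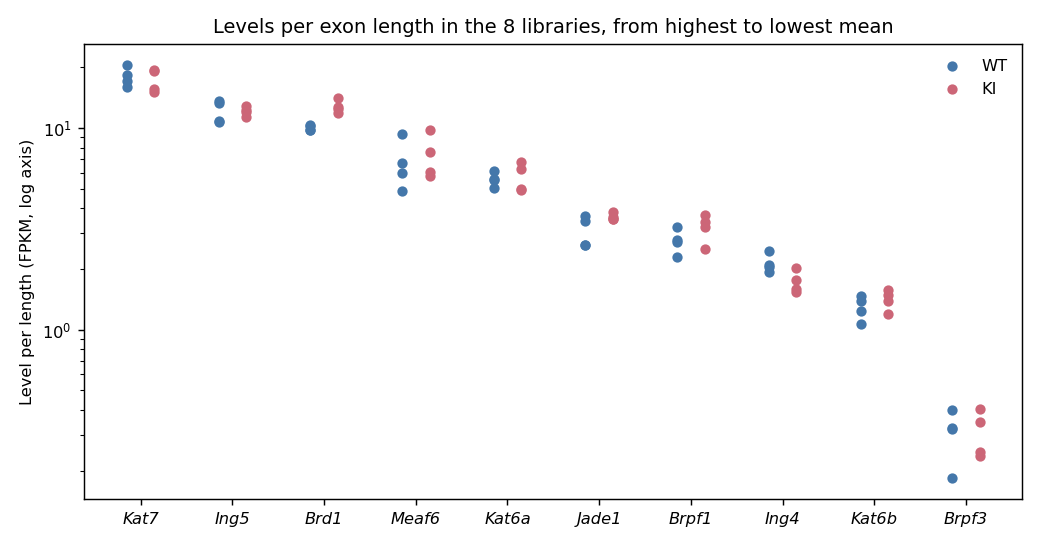
Deposited FPKM (vertical log axis) of the 10 genes, ordered by their mean, in the 4 WT (blue) and 4 KI (red) libraries. Kat7 heads the order at 17.7 FPKM and Brpf3 ends it at 0.309.

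In each role, 1 gene had the highest level per length in every library. Brd1 made up 74.0% to 83.6% of the summed FPKM of the 3 BRPF scaffolds, Brpf1 14.9% to 23.3% and Brpf3 1.44% to 2.88% over the 8 libraries. When the JADE scaffolds were added (Jade2 averaged 2.95 FPKM and Jade3 1.40), Brd1 made up 45.6% to 59.9% of the sum. Among the enzymes of these scaffolds, Kat7 supplied 64.5% to 76.3%, Kat6a 18.6% to 29.1% and Kat6b 4.29% to 6.37%. Ing5 supplied 81.4% to 89.4% of the sum of Ing5 and Ing4, where the Ing4 level is uncertain for the overlap given above. All these shares depend on the joined exon lengths, from 4729 bases in Ing5 to 16826 in Kat6b.

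The share of Brd1 was nearly the same in both groups although its level was not. Of the 6 scaffold genes it held 49.9% ± 2.70 of the WT sum and 51.8% ± 5.96 of the KI sum (SD, n = 4 per group). Of the 3 BRPF genes it held 76.7% ± 2.31 and 78.2% ± 3.95. The summed FPKM of the 6 scaffolds was 20.6, 20.2, 19.1 and 20.6 in WT and 25.95, 23.4, 24.6 and 24.7 in KI, so these sums did not overlap, but Brd1 is the largest part of them. Without Brd1 the sum of the other 5 was 10.9, 10.4, 8.86 and 10.3 FPKM in WT and 14.1, 9.40, 12.2 and 11.98 in KI. Here KI 526 fell inside the WT range, and the other 3 KI libraries lay above it. KI 526 combined the most Brd1 with the least Jade3, 0.416 FPKM against 1.76 to 2.12 in the other KI libraries. The sum of the 3 enzymes averaged 24.8 ± 1.59 FPKM in the WT libraries and 24.5 ± 1.48 in the KI libraries.

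**Figure D4:**
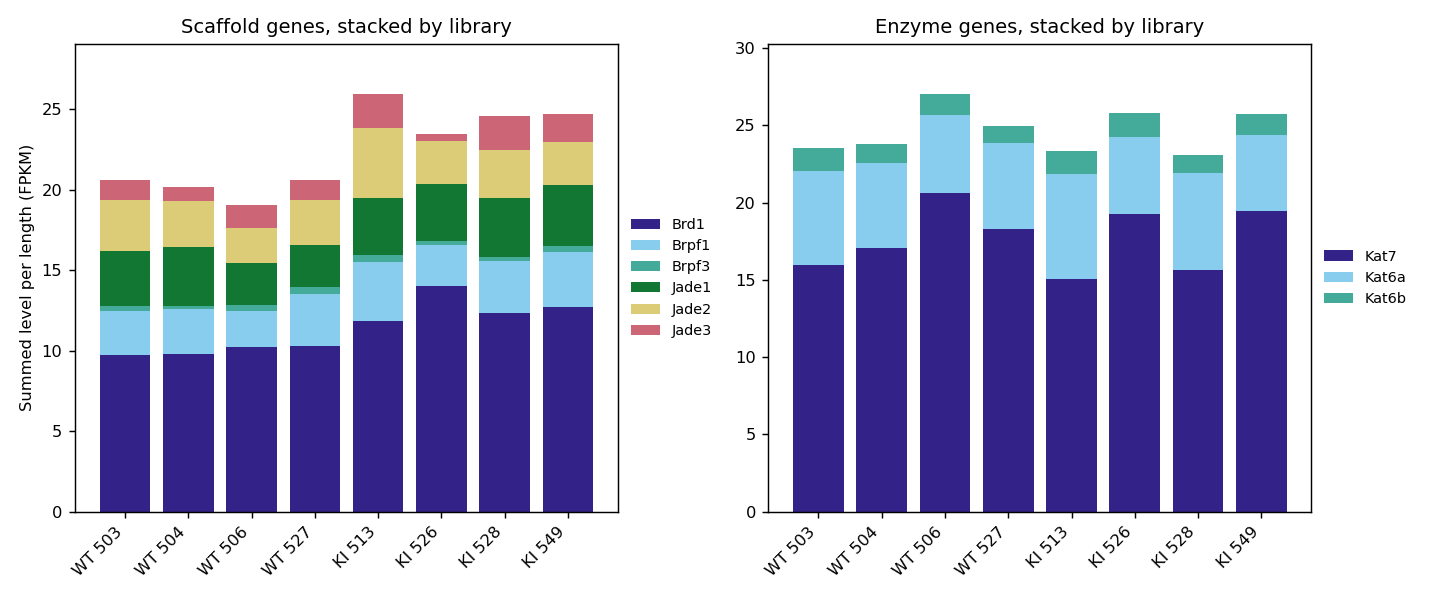
Summed level per length (FPKM, from 0) of the 6 scaffold genes (left) and the 3 enzyme genes (right), stacked by gene for each library. Scaffold sums lie between 19.1 and 20.6 in WT and between 23.4 and 25.95 in KI, with Brd1 the largest part in every library. Without Brd1, which was chosen for its difference, the scaffold sums of the groups overlap (8.86 to 10.9 in WT, 9.40 to 14.1 in KI). The enzyme sums of the groups overlap as well.

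Relations between the members across the 8 libraries were examined for all 45 pairs on log2(CPM + 0.1), and none passed after adjustment. The Pearson coefficient farthest from 0 was that of Kat6a with Kat7 (r = −0.92, exact permutation p = 0.00258, adjusted over the 45 pairs 0.116, n = 8). Their Spearman rho was −0.86 (exact permutation p = 0.0107, adjusted 0.241). Their r was −0.92 as well without the 2 libraries farthest in Kat6a, KI 513 and KI 526, and with the group means removed. Kat6b and Ing4 followed by r (−0.75, exact permutation p = 0.0312, adjusted 0.703) but had the Spearman rho farthest from 0 (−0.90, exact permutation p = 0.00456, adjusted 0.205). Their r was −0.96 without KI 528 and WT 527, the 2 farthest in Kat6b, and −0.68 with the group means removed. Ing5 and Jade1 had r = −0.68 (exact permutation p = 0.0738, adjusted 0.845; rho = −0.43, exact permutation p = 0.299, adjusted 1), at −0.85 without WT 503 and WT 504 and at −0.92 with the group means removed. For Brd1 the coefficient farthest from 0 was with Ing4 (r = −0.65), and it was −0.06 with the group means removed. With Kat6a and Kat7 the order was the other way round, at r = −0.11 and 0.08 over all libraries and −0.74 and 0.72 with the group means removed. These last were the farthest from 0 for Brd1 by that measure and are named after their values were seen. Coefficients with the group means removed were not tested.

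Outside the set, the protein-coding genes whose levels followed Brd1 most closely were Fbxl17, an F-box protein gene (Pearson r = 0.956 over the 8 libraries), Uqcrc1 of respiratory complex III (0.952), Ifi207, an interferon-inducible gene (0.948), and Acbd3, a Golgi protein gene (0.946). They head a ranking of 9085 genes, so the coefficients are a description and carry no p. Ranking by correlation with Brd1, whose groups were apart, favours genes that are apart as well, so their separation is no separate result. All 4 were higher in KI without overlap, beside 3.08% of all genes that averaged 5 CPM or more. Fbxl17, for example, was at 9.54, 10.6, 10.8 and 10.2 CPM in WT and 12.2, 14.1, 14.3 and 12.5 in KI. With the group means removed, the coefficients were 0.714 for Fbxl17, 0.580 for Uqcrc1, 0.522 for Ifi207 and 0.389 for Acbd3.

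The remaining genes of the 3 families did not pass the test either, with 0 of 7 called. Ing3, a subunit of the TIP60 complex, was at 67.2, 61.1, 67.0 and 53.4 CPM in WT and 79.7, 73.4, 71.1 and 75.1 in KI. Its groups did not overlap (log2 fold change 0.27, SE 0.094, edgeR adjusted p = 0.572). Jade2 and Jade3, the other JADE scaffolds, had log2 fold changes of 0.23 (adjusted p = 0.84) and 0.42 (adjusted p = 0.884), and Jade3 ranged from 2.035 to 10.8 CPM within KI. Ing1 and Ing2, known as subunits of SIN3 deacetylase complexes, stood at 0.17 (adjusted p = 0.878) and −0.05 (adjusted p = 0.984). The MYST enzymes of other complexes, Kat5 (TIP60) and Kat8 (MSL and NSL), stood at −0.06 (adjusted p = 0.959) and −0.20 (adjusted p = 0.828). Per length, the mean of Kat5 (22.9 FPKM) was above that of Kat7, and the mean of Kat8 (8.27 FPKM) was above that of Kat6a, with overlapping ranges.

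Wider lists of histone acetylation genes gave 0 calls of 88 by edgeR, with 49 above 0 and a median log2 fold change of 0.03. At an unadjusted p under 0.05 were 7 higher and 4 lower of the 88, where 3.23% of all genes were higher and 4.56% lower. Groups did not overlap in 7 of the 84 that averaged 5 CPM or more, 4 higher (Brd3, Crebbp, Ing3 and Sp140) and 3 lower (Brd8, Kansl2 and Taf1), beside 6.05% of all genes. Of these 7, Sp140 and Taf1 fell outside the rule for named genes and are named after their values were seen. The TIP60 complex had 9 of 15 above 0 with a median of 0.07. Its member with the smallest p was Ep400, the ATPase of the complex (WT 62.1 ± 9.34 CPM, KI 52.1 ± 3.23 CPM, SD, n = 4 each; log2 fold change −0.25, edgeR adjusted p = 0.656). Next was its bromodomain subunit Brd8, at 166 ± 4.75 and 155 ± 4.57 CPM.

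The MSL and NSL complexes of Kat8 had 2 of 11 above 0 and a median of −0.09. Kansl2, an NSL subunit, did not overlap between WT, at 44.4 ± 6.13 CPM, and KI, at 30.7 ± 7.08 CPM (SD, n = 4 each; log2 fold change −0.53, SE 0.17, edgeR adjusted p = 0.554), and Hcfc1 averaged 50.3 ± 6.65 and 44.02 ± 3.02 CPM. Acetyltransferases outside the MYST family had 5 of 10 above 0 and a median of 0.03. Crebbp, the CREB-binding protein, stood at 475 ± 19.2 CPM in WT against 522 ± 19.7 in KI (log2 fold change 0.14, edgeR adjusted p = 0.604). Ncoa1, a nuclear receptor coactivator, was at 28.5 ± 2.40 CPM in WT against 38.6 ± 9.39 in KI (log2 fold change 0.44, edgeR adjusted p = 0.609), with KI 549 below every WT library and the other KI libraries above.

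Histone deacetylases and sirtuins, which remove acetyl groups, had 9 of 17 above 0 and a median of 0.03. Hdac2 was at 18.01 ± 3.88 CPM in WT against 23.8 ± 6.49 in KI (SD, n = 4 each; log2 fold change 0.40, edgeR adjusted p = 0.721), and Sirt7 178 ± 12.7 and 194 ± 10.1 (0.13, adjusted p = 0.729). Bromodomain genes outside the set and outside the lists above, many of whose proteins read acetylated lysines, had 20 of 28 above 0 and a median of 0.06. Bromodomain genes placed in the other lists, such as Brd8, are not among them. Brd3, a BET family reader, was at 73.8, 77.6, 69.5 and 68.8 CPM in WT and 83.5, 99.5, 90.2 and 85.1 in KI. All KI libraries were above all WT libraries (log2 fold change 0.31, SE 0.084, edgeR adjusted p = 0.507), and like Brd1 it was highest in KI 526. It was the 1 gene of the 88 that DESeq2 called (adjusted p = 0.0326). Over all genes to which DESeq2 gave an adjusted p, 1.11% were called. Trim24 was at 19.3 ± 2.64 CPM in WT against 26.4 ± 4.96 in KI (log2 fold change 0.45, edgeR adjusted p = 0.587).

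**Figure D5:**
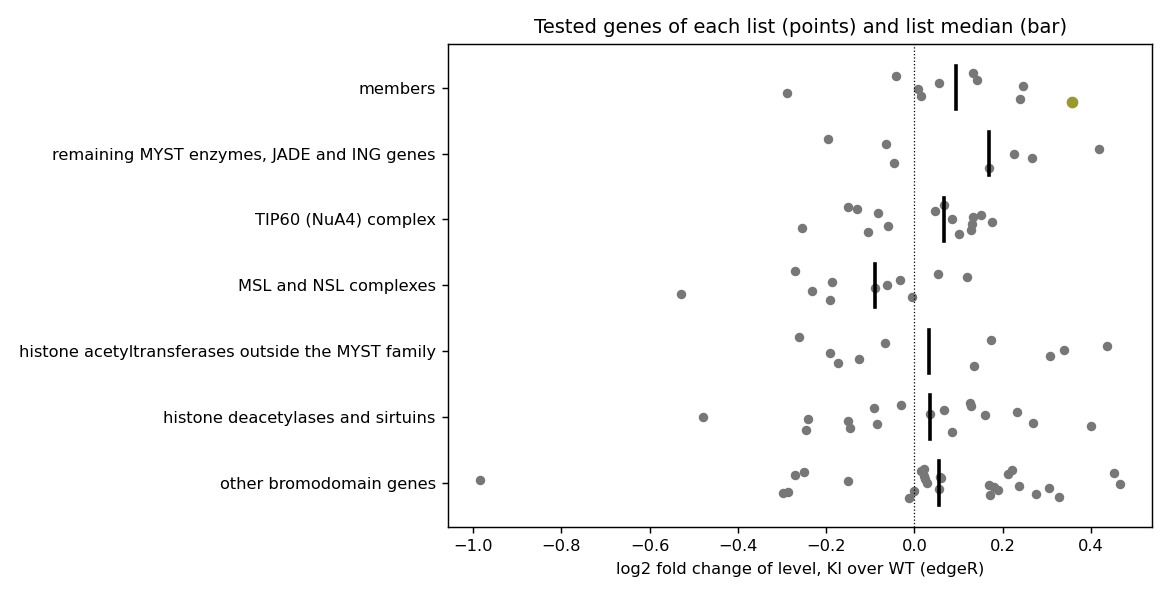
Log2 fold change of level, KI over WT (horizontal axis), of each tested gene (points) in the set and in 6 lists of related genes, with the list median as a bar and Brd1 in olive. Medians lie between −0.09 for the MSL and NSL complexes and 0.17 for the 7 remaining MYST, JADE and ING genes. The median of the set, 0.09, includes Brd1, which was chosen for its difference, and is 0.06 without it.

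Libraries also differed in how levels depended on GC content, and this moved with the genotype. The slope was 0.0615, −0.0113, 0.0736 and 0.0970 (log2 per 10 points of GC) in the WT libraries and −0.0736, −0.1187, −0.0743 and 0.0459 in the KI libraries. Of the KI libraries, 3 had slopes below every WT slope and KI 549 lay inside the WT range. The part of GC content in the differences above was not tested beyond the correction given next. The longest transcripts of the set have GC contents from 46.35% (Jade1) to 55.5% (Brpf3), with Brd1 at 52.7%. With trends on GC content and length removed from each library, the log2 fold change of Brd1 was 0.47, that of Brpf1 0.39 and that of Brpf3 0.17. The estimate of every gene of the set was higher than without the correction, also that of Ing4, at −0.20, and of Meaf6, at 0.21. With this correction 0 of the 9 partners were called.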

How the data were processed

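Counts per gene were deposited by the authors for 8 libraries; per the file headers featureCounts 2.0.3 assigned primary alignments of read pairs to genes through their exons, with no strand option. Between 68.9% and 70.8% of counts from 1 to 9 were even in each library, so both reads of a pair may be counted. The FPKM values were deposited by the authors without a stated tool. STAR 2.7.5c, SAMtools 1.9, R 3.6.0, edgeR and limma are also named, per the submitters' processing notes, with build mm10. Symbols came from GENCODE M21 (54409 of 54532 identifiers matched). The table has 8 columns of no labelled library, which were not used.

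Tests used edgeR 4.0.16 under R 4.3.3 on these deposited counts (TMM, filterByExpr with minimum count 10 and total 15, robust quasi-likelihood test, group as the only term, Benjamini-Hochberg adjustment over all tested genes, threshold 0.05). Intervals are 95% intervals. The code was tested on simulated counts. Alternatives used DESeq2 1.42.0, limma 3.58.1, other scalings and filters, halved counts, log2(FPKM + 1), GC and length trends, and each library left out. No molecular identifiers were counted, so limits from counts cover counting error only; a count of 0 would allow 3 reads, 0.0555 to 0.0664 CPM.

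The set, the lists and the tests were chosen with earlier results of these data known. Named genes were all 10 members and the remaining MYST, JADE and ING genes; from each other list the 2 with the smallest p and a mean of at least 5 CPM; the 4 coding genes best correlated with Brd1; and genes whose exons overlap a member.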

Additional observations from a re-analysis of the deposited data

How the results depend on the processing

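The count of called partners of Brd1 was 0 under all 18 alternatives. Over all genes, where edgeR's quasi-likelihood test called 0 (1347 at an unadjusted p under 0.05), DESeq2 called 233, edgeR's likelihood ratio test 42 and limma on log2(FPKM + 1) 1, while the other 15 alternatives called 0. Of the 88 related genes DESeq2 called 1, beside 1.11% of all genes to which it gave an adjusted p, and the other alternatives called 0. The count of genes without overlap was 615, and between 825 and 1270 with 1 library left out and so fewer libraries to keep apart. The log2 fold change of Brd1 moved from 0.36 to 0.47 with GC and length trends removed. That of Kat7 turned from −0.04 to 0.0344 with these trends removed, and that of Ing5 from 0.01 to −0.0022 with library totals only. With 1 library left out, the sign turned for Brpf3 (−0.163 without WT 504 to 0.175 without WT 527), Kat6a (−0.0421 without KI 513 to 0.126 without KI 526), Kat7 (−0.100 without WT 503 to 0.0297 without WT 506), Ing5 (−0.0481 without WT 503 to 0.0751 without WT 527) and Meaf6 (−0.0438 without KI 549 to 0.324 without WT 503). Without a change of sign, Kat6b went from 0.14 to 0.0646 without WT 527 and Brpf1 ranged from 0.160 without KI 513 to 0.351 without KI 526, while Jade1 ranged from 0.173 to 0.348 and Ing4 from −0.388 to −0.205. The cause of these moves was not tested. The order of the 10 genes by level per length was the same with CPM per kilobase. Brpf3 was not fitted under the filter of a mean of 5 CPM. No paired analysis was possible because the labels give no pairing of WT with KI mice. Depth limits Brpf3 most, with 73 to 172 reads per library.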
